A study of Homo sapiens with 4 samples.

Results

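The 4 HOX gene clusters were examined for m6A peaks in H1975 cells carrying the control shRNA NC-sh or an shRNA against METTL3 (METTL3-sh). Peaks were taken when their summit lay in 1 of 4 windows of the human genome build hg19, the build that the submitters' processing notes name. The HOXA window was chromosome 7 from 27.13 to 27.25 Mb, HOXB was chromosome 17 from 46.606 to 46.807 Mb, HOXC was chromosome 12 from 54.332 to 54.45 Mb, and HOXD was chromosome 2 from 176.957 to 177.056 Mb. This rule used position and no measured value. It gave 29 of 21693 peaks in all, 12 of 9441 from NC-sh and 17 of 12252 from METTL3-sh.

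H1975 is an established human lung adenocarcinoma (LUAD) cell line. METTL3, the catalytic subunit of the enzyme complex that writes m6A on mRNA, was targeted by lentiviral interference, for which the labels give 48 h. There was 1 MeRIP library (RNA fragments bound by an m6A antibody) and 1 Input library (fragments before the pull-down) per condition, both from total RNA, and 1 peak list was deposited for each MeRIP library. The description of the series speaks of replicates, but the labels give a single library of each kind in each condition, so differences between the conditions could not be set against replicate error and carry no p-value. METTL3 itself could not be checked, as the lists give peaks and not expression. All peaks in both lists carry names starting with H1299, another LUAD line, while the labels name H1975.

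HOX genes encode transcription factors with a homeodomain, a DNA-binding fold, and they assign identity along the head-to-tail axis of the embryo. They sit in 4 clusters, and within each cluster the order of the genes follows the order in which they act along the body axis. Adult cells keep part of this pattern, and lung tissue is known for expressing genes from the anterior and middle parts of the clusters. Most m6A in mRNA lies near stop codons and in long exons, and it marks transcripts for readers that change their decay, splicing or translation. A peak can appear only where the RNA is expressed, so a cluster without peaks may be either silent or expressed without detectable m6A. Between conditions, fewer molecules of an RNA and less m6A per molecule are told apart in these lists only as far as the local expectation follows the Input.

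In the RefSeq annotation of GRCh38.p14, which is another build and was used for the order of genes and for lengths only, the 38 HOX genes considered here were spread over HOXA (10), HOXB (10), HOXC (9) and HOXD (9). Among the HOX genes lay 23 long noncoding RNA genes and 8 miRNA genes. Along rising chromosome position HOXA runs from the end that holds HOXA2 and HOXA3 through HOXA4, HOXA5, HOXA6, HOXA7, HOXA9, HOXA10 and HOXA11 to HOXA13. HOXB runs from HOXB1 to HOXB9, after which a wide interval with PRAC2 and PRAC1 separates HOXB13. HOXC and HOXD run the other way, from HOXC13 to HOXC4 and from HOXD13 to HOXD1. HOTAIR, a noncoding RNA known for its link to repressive chromatin, lies between HOXC12 and HOXC11. From the first to the last HOX gene the clusters measured 107.1 kb in HOXA, 200.2 kb in HOXB, 117.2 kb in HOXC and 103.4 kb in HOXD, against windows of 120, 201, 118 and 99 kb. The HOXD window was thus shorter than that span, but widening all windows by 20 kb on both sides added no peak. No hg19 annotation was used here, so none of the 29 peaks was assigned to any of the 38 HOX genes, nor to an exon, intron or UTR. HOXA5 is known for its part in lung development, HOXA9 for its part in blood stem cells and leukaemia, HOXA13 and HOXD13 for patterning the digits, and HOXB13 for its expression in prostate. Among the miRNA genes are those of the miR-10 and miR-196 families, the latter known to target HOX mRNAs. Antisense RNAs such as HOXA-AS2, HOXA-AS3, HOXA11-AS, HOXB-AS3 and HOXD-AS2 lie among the HOX genes, and the lists give no strand.

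For each peak the authors' peak caller gave the pileup (MeRIP reads at the summit times 1 factor per library), the fold enrichment (pileup over the number expected locally, with 1 added to both) and a −log10 q. Dividing pileup by its step, 0.327 in NC-sh and 0.364 in METTL3-sh, gave reads at the summit. No peak with a fold enrichment of 6 or less was listed in either condition. The median NC-sh peak of the whole list had a fold enrichment of 10.2 and 169 reads at the summit, and the median METTL3-sh peak 9.79 and 132. Intervals cover counting error only, and reads without molecular identifiers are not independent molecules.

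In the METTL3-sh list more peaks stood in HOXA and fewer in HOXC than in the NC-sh list. The HOXA window held 3 NC-sh and 10 METTL3-sh peaks (95% Poisson intervals 0.619 to 8.77 and 4.80 to 18.4). HOXC held 4 and 1 (1.09 to 10.2 and 0.0253 to 5.57). HOXB held 3 and 2 (0.619 to 8.77 and 0.242 to 7.22), and HOXD held 2 and 4 (0.242 to 7.22 and 1.09 to 10.2). The intervals of the 2 conditions overlapped in every cluster. The ratio of METTL3-sh to NC-sh was 3.33 in HOXA (exact 95% interval 0.858 to 18.8) and 0.25 in HOXC (0.00508 to 2.53), so neither ratio was separated from 1 by counting error alone. It was 0.667 in HOXB (0.0557 to 5.82) and 2 in HOXD (0.287 to 22.1). Over the 4 clusters it was 1.42 (0.638 to 3.25) against 1.30 over all peaks (1.26 to 1.33). The other 3 clusters had 9 and 7 peaks together, which gave 0.778 (0.246 to 2.35). Without HOXA the total was thus not larger in METTL3-sh, although HOXD went from 2 to 4. When the genome was divided into stretches of 120 kb, 0.0447% of the 6711 stretches with a peak in either list had at least 7 more peaks in METTL3-sh, the difference seen in HOXA. These were 3 stretches, the one over HOXA among them. The limit was the difference of HOXA itself, and 1 stretch held all of its 3 and 10 peaks. That stretch therefore had to be among the 3, and the share is a description and no test. A rise of at least 7 is possible only in stretches with at least 7 METTL3-sh peaks. At least the 10 of HOXA were held by 23 stretches. At least 3 fewer peaks, as in HOXC, were found in 0.358% of stretches (24), with a stretch over HOXC among them. This limit was likewise set by HOXC itself. The division split the HOXC window, and its stretch with the fall held 3 NC-sh and 0 METTL3-sh peaks. As many NC-sh peaks as the 4 of the whole HOXC window, or more, were held by 424 stretches, that stretch not among them. The size of the difference in HOXA depended on the filter. With a fold enrichment of at least 12 it held 3 peaks in either list, which were the 3 shared sites in NC-sh but 1 shared site and 2 without an NC-sh counterpart in METTL3-sh. At or above a −log10 q of 36.6, the median over both lists, it held 1 and 3, and with equally long lists, cut by −log10 q, it held 3 and 6. In HOXC no peak of either list reached 12 (0 and 0).

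**Figure D1:**
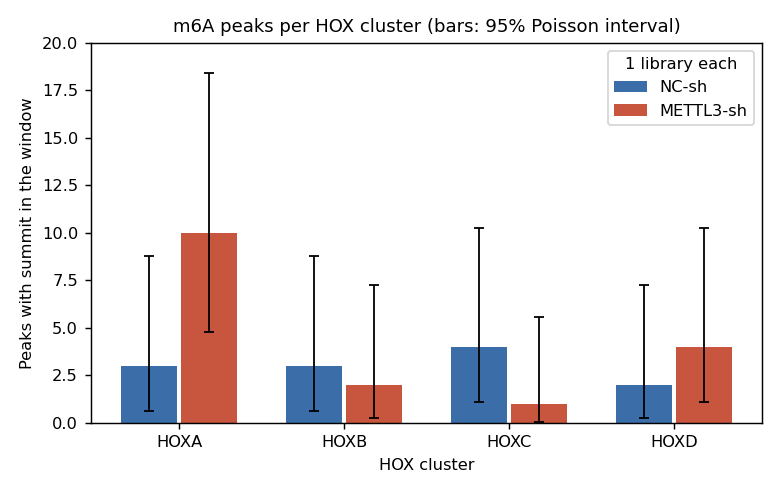
Number of peaks with a summit in each HOX window (vertical axis) in NC-sh (blue) and METTL3-sh (red), 1 library each, with 95% Poisson intervals of the counts as error bars. HOXA goes from 3 to 10 and HOXC from 4 to 1, and the intervals of the 2 conditions overlap in all 4 clusters.

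The density of peaks along the clusters differed less in NC-sh than in METTL3-sh. In NC-sh there were 2.50 peaks per 100 kb in HOXA, 1.49 in HOXB, 3.39 in HOXC and 2.02 in HOXD. In METTL3-sh these were 8.33, 0.995, 0.847 and 4.04. Peaks covered 0.95% of the HOXA window in NC-sh against 2.46% in METTL3-sh, and 1.12% against 0.311% of the HOXC window. None of the clusters was empty in either library. Peaks just outside the windows were far away, the closest lying 88.1 kb below the HOXD window. A peak was found there in both lists, with 57 reads and a fold enrichment of 13 in NC-sh, and with 72 reads and a fold enrichment of 14.8 after knockdown.

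In HOXA, 3 sites carried a peak in both lists. The HOXA peak with the most reads was chr7:27168234-27168716 in NC-sh, with 586 reads (95% Poisson interval 540 to 635) and a fold enrichment of 13.8. In METTL3-sh it was chr7:27168189-27168694 with 498 reads (455 to 544) and a fold enrichment of 18.2. There were fewer reads in METTL3-sh, but the local expectation was also lower, at 9.0 against 13, so that fold enrichment was 1.32 times as high (95% interval from MeRIP reads only 1.17 to 1.49). At the second site, chr7:27183853-27184131, fold enrichment was 12.9 in NC-sh with 107 reads and 10.2 in METTL3-sh with 98 reads, a ratio of 0.791 (0.595 to 1.05). At the site next to the HOXA13 end, chr7:27237537-27237914, with its summit 12.3 kb from the window edge, it was 12.3 with 72 reads and 8.68 with 45 reads, a ratio of 0.707 (0.476 to 1.04). The last 2 intervals include 1. All 3 sites had fewer reads in METTL3-sh, a library in which 62.5% of all pairs of overlapping peaks had more. In pileup, which holds the factor per library, the ratios of METTL3-sh to NC-sh were 0.944, 1.02 and 0.694. The second site was thus not below 1 in pileup. The median log2 ratio of pileup was -0.083 in the 3 HOXA pairs and 0.28 over all pairs.

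A further 7 HOXA peaks were found in METTL3-sh only, 2 of them with over 200 reads at the summit and 5 with at most 50. Over the whole METTL3-sh list 41.4% of peaks had no NC-sh counterpart. Most reads were found at chr7:27194444-27194762, with 291 reads (259 to 326), a fold enrichment of 17.8 and a −log10 q of 94.6. Next came chr7:27184370-27184842, with 240 reads (211 to 272), a fold enrichment of 17 and a −log10 q of 77.8. It began 284 bp after a METTL3-sh peak that NC-sh shared, but itself overlapped no NC-sh peak. Both strong peaks lay above the median of all METTL3-sh peaks in reads and in fold enrichment.

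The 5 weak HOXA peaks had 24 to 50 reads at the summit. The one at chr7:27145972-27146199, towards the end with HOXA2 and HOXA3, had 39 reads and a fold enrichment of 9.56. The peak at chr7:27190094-27190352 had 50 reads and a fold enrichment of 6.11, and chr7:27211574-27211826 had 50 reads and 9.59. The last of them, chr7:27224393-27224592 and chr7:27226458-27226690, had 24 reads with a fold enrichment of 6.12 and 26 reads with 6.58. The minimum in the whole METTL3-sh list was 24 reads. Of these 5 peaks, 4 lay between the second and the third shared site, as did both strong ones, so 6 of the 7 METTL3-sh peaks without a counterpart stood in 1 interval of 53.4 kb that was empty in NC-sh.

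**Figure D2:**
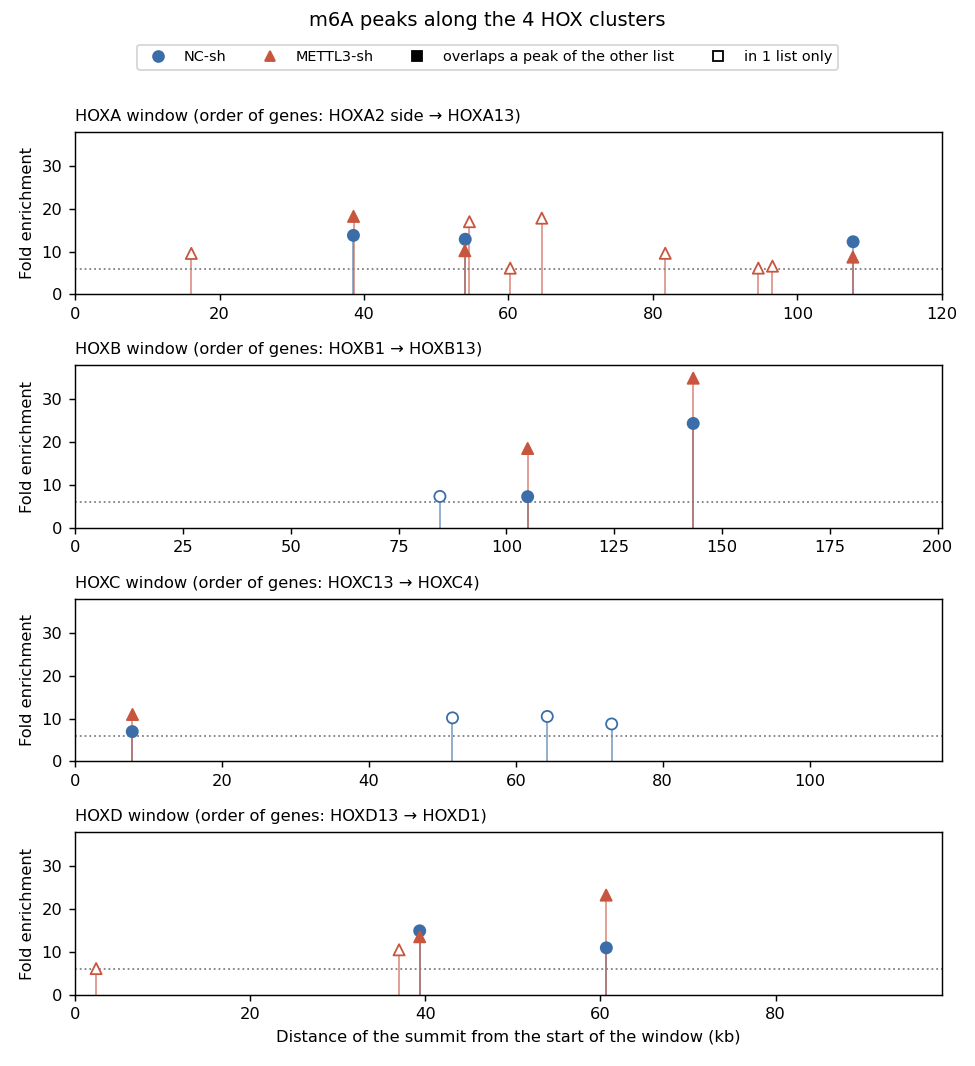
Fold enrichment (vertical axis) of each peak against the distance of its summit from the start of the window in kb (horizontal axis) for HOXA, HOXB, HOXC and HOXD, NC-sh as blue circles and METTL3-sh as red triangles. Filled symbols overlap a peak of the other list, open ones do not, and the dotted line is the limit of 6. Open triangles fill the HOXA window between 54.6 and 96.5 kb, and 3 open circles stand in the HOXC window between 51.4 and 73.0 kb.

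The single peak with the highest fold enrichment of the 4 clusters lay in HOXB in both lists, although the median of the 3 HOXB peaks in NC-sh, 7.33, was the lowest of the 4 clusters. At chr17:46749109-46749537 in NC-sh this peak had a fold enrichment of 24.4 with 146 reads, and at the same summit in METTL3-sh it was 35.0 with 150 reads. Of all peaks in their list, 88.8% and 95.2% had a lower fold enrichment. The local expectation was 1.0 in the former and 0.588, the lowest value in its list, in the latter, which gave a ratio of fold enrichment of 1.43 (95% interval from MeRIP reads only 1.13 to 1.81). At chr17:46710822-46711113 the NC-sh peak had a fold enrichment of 7.28 and its METTL3-sh partner 18.5, a ratio of 2.55 (2.18 to 2.97). Here reads were higher, at 405 against 286, and the local expectation was lower, at 7.0 against 12. The summits of this pair lay 2 bp apart. The third HOXB peak was found in NC-sh only, at chr17:46690546-46690751, with 48 reads, a fold enrichment of 7.33 and a −log10 q of 9.23. No HOXB summit lay in the 57.7 kb at the HOXB13 end of the window or in the 84.6 kb at the HOXB1 end.

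The HOXC cluster had 3 peaks in NC-sh that METTL3-sh lacked, where 23.8% of all NC-sh peaks had no METTL3-sh counterpart. They were chr12:54383285-54383643 with 59 reads and a fold enrichment of 10.2, chr12:54396179-54396439 with 125 reads (104 to 149) and 10.5, and chr12:54404907-54405391 with 54 reads and 8.73. Their summits lay 12.9 and 8.77 kb apart, in the middle of the window. All 3 had fewer reads than the median NC-sh peak, and the first 2 were close to the median fold enrichment. The only HOXC peak of METTL3-sh was at the HOXC13 end, 7.81 kb into the window, and it was shared. At this site, chr12:54339635-54339855 in NC-sh, fold enrichment was 6.94 with 29 reads in NC-sh and 11.2 with 46 reads in METTL3-sh, a ratio of 1.61 (0.989 to 2.66) whose interval includes 1. Among the shared sites it had the lowest NC-sh fold enrichment, and HOXC had no peak with a fold enrichment of 12 or more in either list.

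The HOXD cluster kept both of its NC-sh peaks in METTL3-sh. At chr2:176996161-176996534 fold enrichment was 14.9 with 271 reads in NC-sh and 13.6 with 221 reads in METTL3-sh, a ratio of 0.907 (0.756 to 1.09), with the summit at the same base. At chr2:177017493-177017864 it was 11.0 with 64 reads and 23.3 with 99 reads, a ratio of 2.12 (1.53 to 2.95). The local expectation was 1.0 and 0.588, the latter the lowest value in its list. Reads were 1.55 times and pileup 1.72 times as high in METTL3-sh, both below 2-fold. A further 2 peaks were found in METTL3-sh only. One was chr2:176993824-176994192, with 58 reads and a fold enrichment of 10.5, exactly 2000 bp before the first shared METTL3-sh peak. The other was chr2:176959346-176959545 at the HOXD13 end, with a fold enrichment of 6.12 from 24 reads, the lowest number in the list. No summit lay in the 38.3 kb at the HOXD1 end in either list.

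Taking the shared sites of the 4 clusters together, METTL3-sh had the higher fold enrichment in most of them, as it did over all pairs. In 8 pairs 1 NC-sh peak overlapped 1 METTL3-sh peak and neither overlapped another, with summits a median of 17.5 bp apart. METTL3-sh was lower in fold enrichment in 3 pairs and higher in 5, and over all 6863 pairs it was lower in 41.1%. The median log2 ratio was 0.46 in the HOX pairs (SD over pairs 0.67, from -0.50 to 1.35) and 0.13 over all pairs (SD 0.67). Of the 8 pairs, 2 were at least 2-fold higher in METTL3-sh, 1 in HOXB and 1 in HOXD, where 9.4% of all pairs were. None was at least 2-fold lower, where 4.78% of all pairs were. The 3 pairs that were lower were 2 of HOXA and 1 of HOXD. Reads at the summit were higher in METTL3-sh in 4 of 8 pairs against 62.5% of all pairs, and the local expectation was lower by over 1% in 4 of 8 against 34.9%. The median log2 ratio of the expectation was -0.27 in the HOX pairs and 0.20 over all pairs, while that of the reads was -0.04 and 0.13. The HOX median was thus above 0 for fold enrichment and slightly below 0 for reads, and it was 0.11 for pileup. The part of the Input in the higher fold enrichment was not tested.

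**Figure D3:**
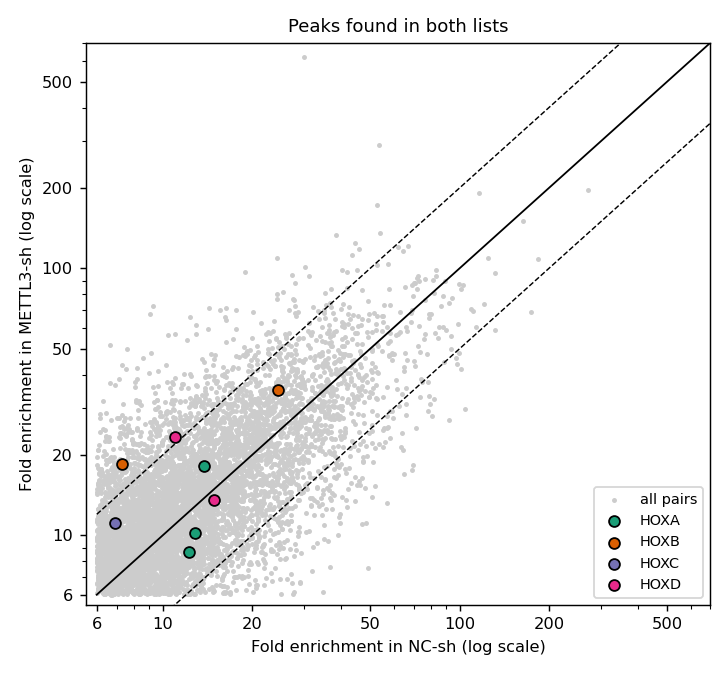
Fold enrichment in METTL3-sh (vertical axis) against NC-sh (horizontal axis), both on log scales, for all 6863 pairs (grey) and the 8 HOX pairs (coloured by cluster), with the line of equal values (solid) and of 2-fold differences (dashed). A HOXB pair and a HOXD pair lie above the upper dashed line, and no HOX pair lies below the lower one.

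Peaks in 1 list only made up a larger share of the HOX peaks than of all peaks in both conditions, by less than counting error resolves. Of the 12 NC-sh peaks, 8 had a METTL3-sh counterpart overlapping by at least 1 bp (66.7%, 95% Clopper-Pearson interval 34.9 to 90.1%) and 4 did not, where 23.8% of all NC-sh peaks did not. Of the 17 METTL3-sh peaks, 8 had an NC-sh counterpart (47.1%, 23.0 to 72.2%) and 9 did not, where 41.4% of all METTL3-sh peaks did not. Both background shares lay inside the intervals of the HOX shares. The clusters differed in where these peaks were. In METTL3-sh they were 7 of 10 in HOXA (30.0% overlapping, 6.67 to 65.2%), 2 of 4 in HOXD and none in HOXB and HOXC. In NC-sh they were 3 of 4 in HOXC (25.0% overlapping, 0.631 to 80.6%), 1 of 3 in HOXB and none in HOXA and HOXD.

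The median number of reads was lower in HOX peaks in 1 list only than in shared ones. In METTL3-sh they had a median of 50 reads, from 24 to 291, against 124.5 in the shared HOX peaks, and a median fold enrichment of 9.56 against 15.9. In NC-sh these were 56.5 reads, from 48 to 125, against 126.5, and a fold enrichment of 9.44 against 12.6. Among all METTL3-sh peaks with at least the 240 reads of the second strong HOXA peak, 13.6% had no NC-sh peak. For the 125 reads of the strongest HOXC peak of NC-sh, 11.5% of NC-sh peaks with at least as many reads had no METTL3-sh peak. Over the whole lists, without a minimum of reads, these shares were 41.4% and 23.8%.

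**Figure D4:**
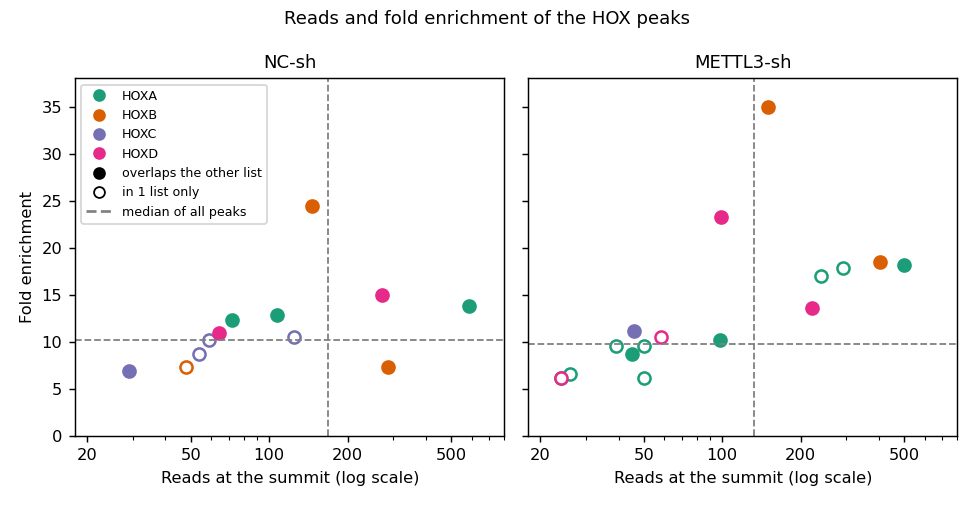
Fold enrichment (vertical axis) against reads at the summit (horizontal axis, log scale) of the HOX peaks in NC-sh (left) and METTL3-sh (right), coloured by cluster, filled where a peak overlaps the other list and open where it does not. Dashed lines are the medians of all peaks, 169 reads and 10.2 in NC-sh and 132 reads and 9.79 in METTL3-sh, and 2 open HOXA symbols lie above both medians in METTL3-sh.

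The numbers in the peak names rise along each chromosome, and some numbers are missing between neighbours. Over the whole lists, 6004 of the numbers up to 15445 were missing in NC-sh and 8336 of those up to 20588 in METTL3-sh. How the numbers were given is not stated in the sources used here, and that a missing number stands for a called but unlisted peak was not tested. In the 53.4 kb interval of HOXA that was empty in NC-sh, 2 NC-sh numbers were missing for 6 METTL3-sh peaks, 4 fewer than the peaks. At the remaining HOXA site 1 number was missing, within an interval of 942 kb. In HOXD, 1 NC-sh number was missing for 2 METTL3-sh peaks. In total 9 METTL3-sh peaks stood against 4 missing NC-sh numbers. It was different for the peaks in NC-sh only. In the interval around the 3 HOXC peaks 4 METTL3-sh numbers were missing, and 6 were missing around the HOXB peak, in intervals of 236 and 573 kb. There the missing numbers were thus at least as many as the peaks without a counterpart, but these intervals were wider than the 53.4 kb of HOXA.

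As a group the HOX peaks were of middle strength. Their median fold enrichment of 10.7 (NC-sh) and 10.5 (METTL3-sh) stood against 10.2 and 9.79 over all peaks. A fold enrichment at or above the list median was found in 8 of 12 and 10 of 17. Their reads were lower, with a median of 89.5 against 169 in NC-sh and 58 against 132 in METTL3-sh, and 3 of 12 and 6 of 17 reached the list median. HOX peaks were also shorter, with a median length of 365.5 bp against 395 bp in NC-sh and 285 bp against 371.5 bp in METTL3-sh.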

How the data were processed

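MeRIP and Input libraries had been made from H1975 cells with NC-sh or METTL3-sh (4 samples), and 1 peak list per MeRIP library was used, with conditions taken from the sample labels. The submitters' processing notes name bcl2fastq, TopHat2 2.0.13, MACS2 2.1.0.20151222 and hg19, without their roles. Of the deposited columns, pileup is a signal proportional to reads, fold enrichment is its ratio to the local expectation (pseudocount 1 on both), and −log10 p and −log10 q come from the authors' peak calling within single libraries. Total depth is not known from the lists, so reads at the summit (at least 25 in NC-sh and 24 in METTL3-sh) describe it.

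Reads were computed as pileup over its step, and the local expectation from pileup and fold enrichment. The −log10 p recomputed from both as a Poisson tail lay within 0.02 of the deposited value for 89.3% (NC-sh) and 86.3% (METTL3-sh) of peaks. Peaks were compared by an overlap of at least 1 bp, and fold enrichment in pairs that overlapped only each other. Intervals are exact Poisson for counts, conditional binomial for ratios of counts and Clopper-Pearson for shares, at 95%. The intervals of fold enrichment ratios take the MeRIP reads as counts and the expectation as known. No test was made. The members, windows and comparisons were chosen with earlier results of these data known. All HOX peaks are accounted for. The rule gave full values to the peaks with the highest fold enrichment per cluster and list, the pairs with the largest differences and every peak in 1 list only, and no peak was given a gene name, as no hg19 annotation was used. For the same reason the list of HOX cofactors and regulators was not analysed here, and no sequence of a peak is shown. The alternatives were stricter filters, lists of equal size, other overlaps, windows and measures, merging and centring, with a minimum of 50 reads added after seeing the data. Pairing and step estimation were tested on simulated data. Python 3.11.15, numpy 2.4.6, pandas 2.3.3, scipy 1.17.1 and matplotlib 3.10.9 were used.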

Additional observations from a re-analysis of the deposited data

How the results depend on the processing

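Placing peaks by any overlap with the window and widening windows by 20 kb changed no value, and merging peaks within 100 bp, run for the counts and their ratio, changed none of these. When a −log10 q of at least 36.6, the median over both lists, was required, HOXA held 1 NC-sh and 3 METTL3-sh peaks. HOXC held 0 and 0, and HOXD 1 and 2. All 4 HOX peaks of NC-sh then overlapped (100%), against 87.5% of all NC-sh peaks at this filter, and 1 of 4 HOX pairs was lower. With a fold enrichment of at least 12, HOXA held 3 METTL3-sh peaks, HOXB 1 NC-sh peak, HOXC 0 and 0, and HOXD 1 and 2, and 1 of 3 pairs was lower. With equal numbers of peaks HOXA held 6 METTL3-sh peaks, and with at least 50 reads, chosen after seeing the data, 6, with 0 in HOXC of METTL3-sh. All of these settings kept fewer METTL3-sh peaks, and what moved the values was not tested. The median log2 ratio of the HOX pairs, 0.46 for fold enrichment, was 0.11 for pileup and turned to -0.04 for reads, with 4 of 8 pairs lower. The change of sign from pileup to reads follows from dividing by the step of each library, which was larger for METTL3-sh (0.364) than for NC-sh (0.327). This division lowers the log2 ratio of every pair alike, and the median over all pairs fell from 0.28 for pileup to 0.13 for reads. Fold enrichment differs from pileup only by the local expectation, with 1 added to both. The median log2 ratio of the expectation was -0.27 in the HOX pairs and 0.20 over all pairs. Why the expectation was lower in the HOX pairs was not tested. No paired analysis was possible because the comparison rests on single libraries and on no test. Depth limits the weak peaks most, as 24 reads carry a Poisson interval of 15.4 to 35.7.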
